A study of Mus musculus with 14 samples.

Results

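The genes described here encode hormones, amine-synthesis enzymes, secretory granule proteins and transcription factors of the endocrine cells of the gut lining. They are the 10 genes Ghrl, Sst, Gast, Hdc, Tph1, Chga, Chgb, Scg5, Insm1 and Neurod1, chosen by symbol from 24421 entries of the count tables, and all 10 were found. Their levels were followed in 12 bulk RNA libraries made from transplanted gastric tumours of mice, 3 in each of 4 groups. TM, TMP and TMPC tumours were each grown at the subcutaneous site and TMPC tumours also at the orthotopic site, where subcutaneous means under the skin and orthotopic means in the organ of origin. About 1 cm3 of tissue was taken per sample 2 months after transplantation. The labels do not spell out the alleles or agents behind TM, TMP and TMPC, nor the strain, sex or age of the hosts, so that these names are used as given. Bulk tumour tissue holds host cells beside tumour cells, and in such samples a smaller number of cells of a type and less RNA per cell cannot be told apart. Nothing in the labels says that replicates came from separate animals. The p-values thus reflect how far these libraries scatter, which need not be the scatter between animals.

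Enteroendocrine cells are single hormone-secreting cells scattered through the glands of the stomach and intestine. In the stomach, ghrelin cells (Ghrl), histamine-producing enterochromaffin-like cells (Hdc) and somatostatin cells (Sst) lie among the acid-secreting glands of the corpus, and gastrin cells (Gast) and further somatostatin cells lie in the antrum. Gastrin drives the release of histamine, histamine drives acid secretion by parietal cells, and somatostatin restrains both. The peptide hormones are cut from precursors inside dense-core granules, whose matrix holds the chromogranins Chga and Chgb, and the cells are specified by transcription factors such as Neurog3, Neurod1 and Insm1.

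The coding stretches of the 3 peptide hormones are shown to let a reader see the transcripts behind the hormone values and the signals for the processing of their peptides. Each was read from the GENCODE M21 transcripts on mm10 and runs 5′ to 3′. In the Gast stretch, chr11:100336819-100336878 on the plus strand, the 17 codons of gastrin are followed by capitals that mark the glycine codon and the pair of basic codons at which the precursor is cut and amidated. In the Ghrl stretch, chr6:113719182-113719360 on the minus strand and split over 2 exons, the capitals mark the serine codon of ghrelin whose side chain is acylated. In the Sst stretch, chr16:23889732-23889779 on the minus strand, the capitals mark the pair of basic codons before the 14 codons of the short form of somatostatin.
Gast: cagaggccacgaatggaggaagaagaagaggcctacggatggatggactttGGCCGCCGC
Ghrl: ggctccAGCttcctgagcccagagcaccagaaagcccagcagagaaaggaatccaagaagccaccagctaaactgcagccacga
Sst: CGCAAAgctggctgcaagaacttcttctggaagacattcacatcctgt

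Libraries held 16584781 to 21107310 counts, and 17122 to 18363 genes had at least 1 count. Levels below are CPM, counts scaled to a common library size with TMM factors over the 12 libraries, and 3 counts, taken here as the detection floor, correspond to between 0.133 and 0.200 CPM. Of 14 gastric gland markers, 6 had no count in any TMP library and 6 in no subcutaneous TMPC library, Gkn2, Pgc and Cldn18 among them, while Epcam, a general epithelial gene, was present in all 12 libraries. Replicate 2 of TM stood apart with 51.4 CPM of Epcam, against 470 and 540 CPM in the other TM libraries. Orthotopic replicate 3 stood apart with 2982 CPM of Alb, a liver gene, and 561 CPM of Amy2a5, a pancreatic amylase, against at most 4.07 and 2.49 CPM elsewhere. Xist, made from the inactive X chromosome of female cells, stood at 305, 1388 and 191 CPM in TM and at no more than 13.5 CPM in the other 9 libraries, so that TM and the presence of female cells cannot be told apart.

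Orthotopic tumours expressed nearly the whole endocrine set, and subcutaneous tumours only part of it. Above the floor of 3 counts were 9, 9 and 10 of the 10 genes in the 3 orthotopic libraries and 5 to 7 in each subcutaneous library. The summed level of the 3 peptide hormones was 324, 239 and 16.1 CPM in orthotopic replicates 1 to 3, and lay between 0.568 and 1.44 CPM in the 9 subcutaneous libraries. No subcutaneous library came near the lowest orthotopic one on this sum.

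Levels of different genes are compared per kilobase of merged exons. In the orthotopic tumours Ghrl stood highest at 152 ± 131 CPM per kb (SD, n = 3), followed by Sst at 37.9 ± 28.6, Chga at 13.8 ± 6.77, Hdc at 6.95 ± 1.63 and Tph1 at 5.17 ± 5.89 CPM per kb. Chgb, Gast and Scg5 followed at 3.62 ± 2.33, 3.44 ± 5.78 and 1.89 ± 0.567 CPM per kb, and Insm1 and Neurod1 stood last at 0.332 ± 0.213 and 0.190 ± 0.0515 CPM per kb. Most of this order was loose: for 8 of its 9 neighbouring pairs the ranges over the 3 libraries overlapped, and Scg5 over Insm1 was the exception. In TM tumours Hdc led at 11.0 ± 15.6 CPM per kb, a mean set by replicate 2 (28.98 CPM per kb, against 1.36 and 2.73 in the other libraries), and its range overlapped that of Tph1, the next gene. In TMP and subcutaneous TMPC tumours Insm1 led instead, at 3.82 ± 2.04 and 3.31 ± 4.16 CPM per kb. The lead of Insm1 over Tph1, the next gene, was clear of overlap in TMP, whereas in TMPC its range overlapped that of Chga.

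**Figure D1:**
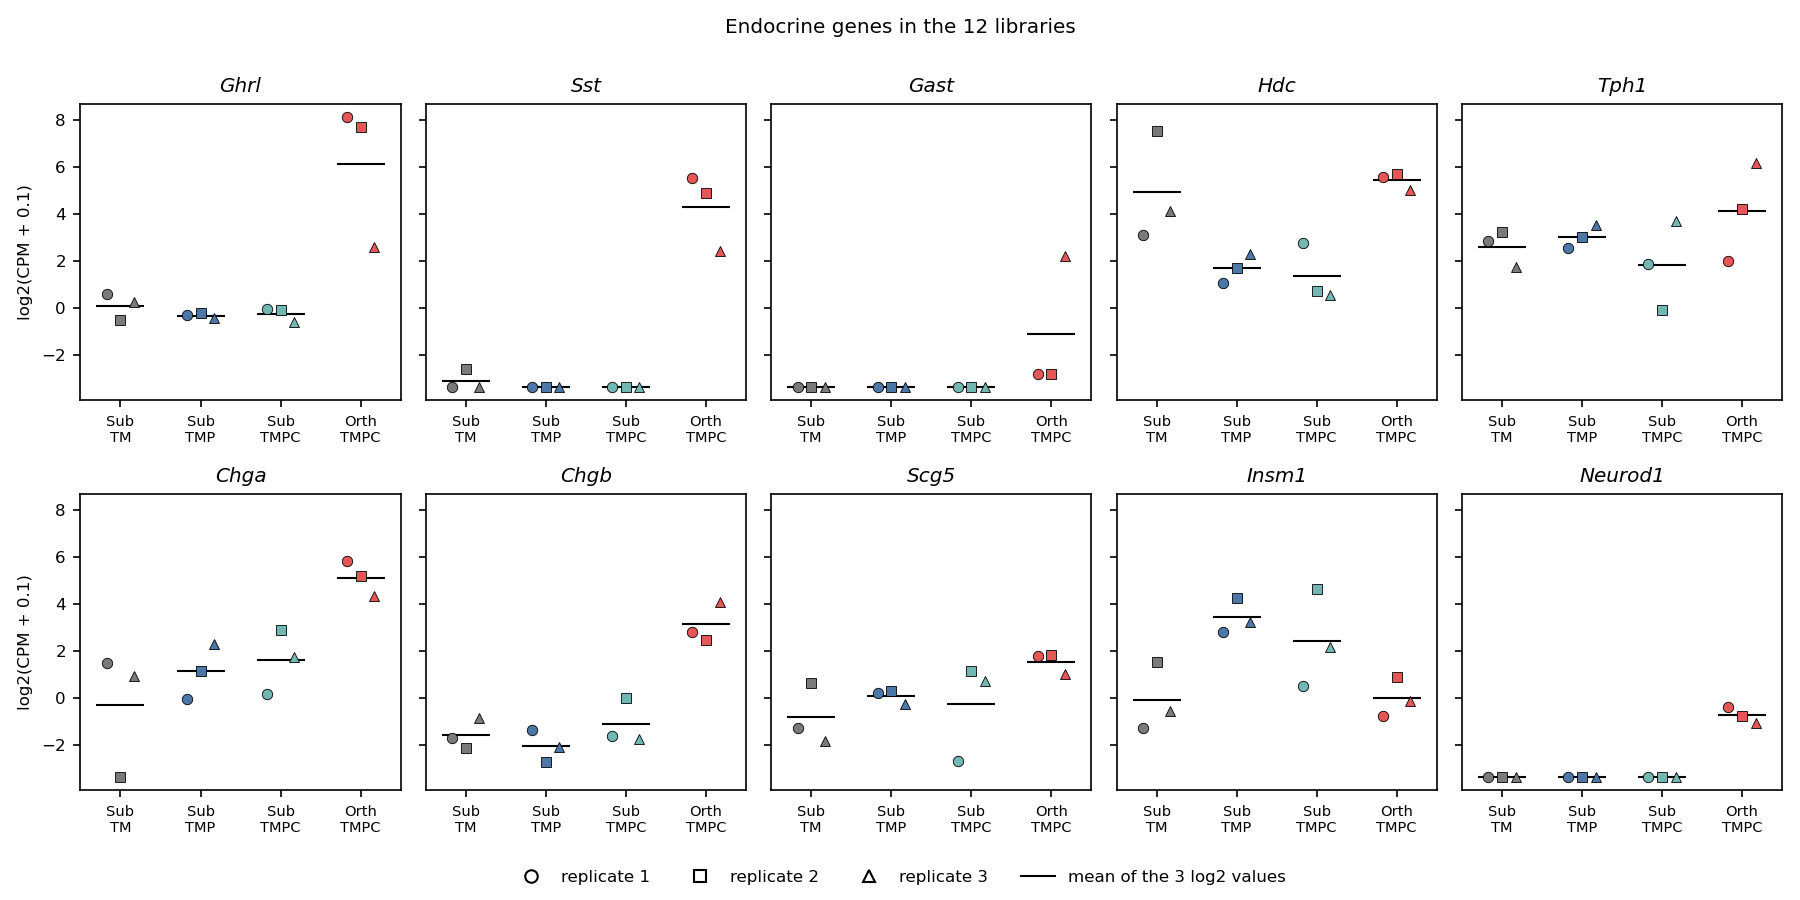
Level of each of the 10 endocrine genes in every library, as log2(CPM + 0.1) on a shared vertical axis; point shapes are replicates, colours are groups and the line is the mean of the 3 log2 values. Ghrl, Sst, Chga, Chgb and Neurod1 sit above all subcutaneous libraries in the 3 orthotopic ones, Hdc is high in orthotopic tumours and in TM replicate 2, and Insm1 is highest in TMP and in TMPC replicate 2.

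The first comparison sets orthotopic against subcutaneous TMPC tumours, which share the genotype label and differ in the place of growth. Of the 10 genes, 8 passed the filter on low counts, and 5 of these rose in the orthotopic tumours: Ghrl, Sst, Hdc, Chga and Chgb (edgeR quasi-likelihood test, Benjamini-Hochberg adjusted p under 0.05). None fell. Across all 15123 genes tested, 14% were called higher and 13.8% lower, 27.8% in all. Of the 8, Chgb, Sst and Scg5 had fewer than 3 subcutaneous libraries at the count minimum of the filter and so were tested only because of their orthotopic levels. In the same position were 1713 of all genes tested, of which 32.3% rose and 0 fell. Among the other 5, Chga, Ghrl, Hdc, Tph1 and Insm1, 3 rose, against 11.7% of the 13410 other genes. The median log2 fold change was 3.57 over the 8 genes and 0.05 over all genes, and it carries the same limit. For 5 of the 8 tested genes the 3 orthotopic libraries all lay above the 3 subcutaneous TMPC libraries, a pattern seen in 22.3% of all genes tested, and the reverse order was seen in 0 of the 8 and in 26.4% of all genes. This count carries the same limit, as Chgb and Sst are among the 5, and the shares were not split by how genes passed the filter. Of the 2 untested genes, Neurod1 was also higher without overlap, whereas 2 of the 3 orthotopic values of Gast were below the floor.

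Ghrl (chr6:113716119-113719880, minus strand; positions of genes are those of mm10) encodes ghrelin, the appetite-stimulating peptide of the corpus. Its level was 277, 209 and 6.04 CPM in orthotopic replicates 1, 2 and 3, from 6240, 4613 and 109 counts, and 0.877, 0.855 and 0.568 CPM in subcutaneous TMPC replicates. The lowest orthotopic library was thus above the highest subcutaneous one, but the orthotopic libraries themselves were widely spread. The log2 fold change was 7.77 ± 1.45 (SE; edgeR adjusted p = 0.0154). Without orthotopic replicate 3 it was 8.33 ± 0.27 (edgeR adjusted p = 0.000927). The level was low in the other subcutaneous groups too: TM libraries held 1.44, 0.601 and 1.10 CPM and TMP libraries 0.713, 0.761 and 0.658 CPM, with 9 to 27 counts in each of the 9. In the annotation the gene shares 172 bp of exon with transcripts on the opposite strand, and since the use of strand in counting is not given in the sources used here, reads from the pair cannot be told apart.

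Sst (chr16:23889573-23890958, minus strand) encodes somatostatin, the inhibitory peptide of D cells. Orthotopic replicates held 46.4, 30.2 and 5.37 CPM, from 1043, 668 and 97 counts, whereas the 9 subcutaneous libraries had 0 counts apart from 1 count in TM replicate 2. Against the floor of 3 counts over the subcutaneous TMPC group, Sst was at least 503-fold higher in the orthotopic group (edgeR adjusted p = 0.0141). Sst and Ghrl ranked the orthotopic libraries alike, highest in replicate 1 and lowest in replicate 3. Their proportion was not constant: per kilobase, Ghrl exceeded Sst 4.00 and 4.61 times in replicates 1 and 2 and was 0.751 times Sst in replicate 3.

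Gast (chr11:100334407-100336996, plus strand) encodes gastrin, the acid-stimulating peptide of antral G cells, and it followed a different course from Ghrl and Sst. It had no count in any of the 9 subcutaneous libraries, which allows up to 0.200 CPM in the shallowest, and 1, 1 and 84 counts in orthotopic replicates 1, 2 and 3. Gast was thus found above the floor in a single library, orthotopic replicate 3, at 4.65 CPM. Over the group it was at least 29.1-fold higher than in subcutaneous TMPC tumours, a bound that rests on that library, since the other 2 orthotopic libraries are under the floor. Gast did not pass the filter on low counts, and when all genes were kept its edgeR adjusted p was 0.131.

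Upstream of the start sites, the cAMP response element was searched as the letters TGACGTCA, which read the same on both strands, in RefSeq promoters of 250 bases before to 50 after the start (GRCm38.p6). Promoters were found for 9 of the 10 genes, 13 promoters in all, and 2 of them, those of Sst and Chgb, held the element. Among 32851 promoters of all genes 1.79% did. The 100 bases before the start of these 2 genes are shown since both rose in orthotopic tumours; capitals mark the element, whose first base lies 48 bases before the start in Sst (chr16:23890845-23890944, minus strand) and 72 in Chgb (chr2:132781542-132781641, plus strand).
Sst promoter: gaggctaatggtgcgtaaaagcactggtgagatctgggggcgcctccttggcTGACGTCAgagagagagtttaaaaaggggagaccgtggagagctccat
Chgb promoter: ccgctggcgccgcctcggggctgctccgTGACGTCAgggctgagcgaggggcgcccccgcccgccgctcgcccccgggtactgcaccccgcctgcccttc
A match of letters is a description, and the binding of a factor was not measured. An E-box of the kind that NEUROD1 binds, CAGATG or CATCTG on either strand, occurred in 2 of the 13 promoters, both of them alternative starts of Ghrl that share bases, against 17.2% of all promoters.

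Hdc (chr2:126593667-126619299, minus strand) encodes histidine decarboxylase, which makes histamine in enterochromaffin-like cells and also in mast cells, basophils and neutrophils. Its level was 48.1, 52.4 and 32.6 CPM in orthotopic tumours and 6.78, 1.55 and 1.39 CPM in subcutaneous TMPC tumours. The groups were far apart and the orthotopic libraries were close to one another, unlike those of Ghrl. The log2 fold change was 3.84 ± 0.68 (SE; edgeR adjusted p = 0.0141). Of 15 mast cell and basophil markers 10 were tested and 0 were called at this threshold. Their summed level was 135 to 170 CPM in orthotopic and 91.7 to 121 CPM in subcutaneous TMPC tumours. Kit, which other cells also make, held a large part of it, and without Kit the sums were 85.5, 108 and 30.2 CPM in orthotopic and 107, 9.20 and 15.7 CPM in subcutaneous replicates 1, 2 and 3. Subcutaneous replicate 1, the highest of its group for Hdc, was thus also the highest for these markers. Cpa3, a mast cell protease, stood at 4.76, 2.13 and 1.83 CPM in orthotopic replicates and at 7.95, 0.214 and 0.103 CPM in subcutaneous ones. Other genes of the list took other courses. Mcpt2 stood at 16.4, 63.2 and 2.10 CPM in orthotopic and at 10.4, 0.0535 and 0 CPM in subcutaneous replicates. Mcpt1 stood at 7.60, 9.86 and 0.443 CPM against 3.57, 0.214 and 0.464 CPM. Mcpt8 stood at 0.222, 0.0905 and 0.388 CPM against 2.16, 0.160 and 2.73 CPM. Of 9 neutrophil markers tested 1, Retnlg, was higher in orthotopic tumours, and the summed neutrophil level was 1060.4 to 1653 CPM against 45.3 to 228 CPM. Most of that sum in orthotopic replicates 1 and 2 was Ltf, which gland epithelium also makes. Without Ltf the sums were 38.4, 45.1 and 1192 CPM in orthotopic and 69.3, 39.1 and 89.8 CPM in subcutaneous replicates, so that orthotopic replicate 3 alone stood above the subcutaneous libraries. Kit, Ltf, Mcpt1, Mcpt2 and Mcpt8 were singled out after their values were seen. The part of these cells in the level of Hdc was not tested.

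Tph1 (chr7:46644641-46672537, minus strand) encodes the rate-limiting enzyme of serotonin synthesis in enterochromaffin cells and mast cells. It was detected in all 12 libraries, with 3.91, 18.9 and 73.0 CPM in orthotopic replicates and 3.63, 0.855 and 13.2 CPM in subcutaneous TMPC replicates. These groups overlapped, and the difference did not pass the test (log2 fold change 2.52 ± 1.28 (SE), edgeR adjusted p = 0.176). Orthotopic replicate 3 was the highest of all libraries for Tph1 and the lowest orthotopic library for Ghrl, Sst, Chga and Hdc.

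The granule matrix genes rose with the hormones, except for Scg5. Chga (chr12:102554969-102565028, plus strand), chromogranin A, was at 57.4, 36.5 and 20.2 CPM in orthotopic replicates and at 1.05, 7.48 and 3.30 CPM in subcutaneous TMPC replicates, a log2 fold change of 3.30 ± 0.76 (SE; edgeR adjusted p = 0.0246). Chgb (chr2:132781278-132795079, plus strand), chromogranin B, was at 7.02, 5.48 and 17.2 CPM against 0.234, 0.909 and 0.206 CPM, a log2 fold change of 4.50 ± 0.85 (SE; edgeR adjusted p = 0.0157). Both genes separated the sites without overlap, and they ranked the orthotopic libraries differently, since Chga was highest in replicate 1 and Chgb in replicate 3. Scg5 (chr2:113776362-113829121, minus strand), the chaperone of the convertase encoded by Pcsk2, was at 3.42, 3.53 and 1.94 CPM against 0.0585, 2.14 and 1.55 CPM. Its groups overlapped and the log2 fold change of 1.28 ± 0.97 (SE) did not pass the test (edgeR adjusted p = 0.352).

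Neither transcription factor was called with the filter on low counts. Neurod1 (chr2:79452521-79456751, minus strand), which drives late endocrine differentiation, had 15, 11 and 7 counts in the orthotopic libraries and none in the 9 subcutaneous libraries, which makes it at least 9.52-fold higher than in subcutaneous TMPC. It did not pass the filter on low counts; with all genes kept its edgeR adjusted p was 0.0278. It shares 355 bp of exon with Cerkl on its own strand and with a lincRNA on the opposite strand, so part of its reads is uncertain. Insm1 (chr2:146221921-146225020, plus strand, a single exon), a zinc finger repressor of early endocrine and neuroendocrine cells, was at 0.489, 1.76 and 0.831 CPM in orthotopic and at 1.35, 25.0 and 4.39 CPM in subcutaneous TMPC tumours. It was the single member tested with a negative log2 fold change, -3.27 ± 1.16 (SE), and it did not pass the test (edgeR adjusted p = 0.0759). Without subcutaneous TMPC replicate 1 it did (-3.80 ± 0.93 (SE), edgeR adjusted p = 0.0435), as it did by DESeq2 on all 6 libraries (-3.28 ± 1.04 (SE), adjusted p = 0.00678). Without subcutaneous TMPC replicate 2, which held the most Insm1, the log2 fold change was -1.47 ± 0.82 (SE; edgeR adjusted p = 0.251).

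**Figure D2:**
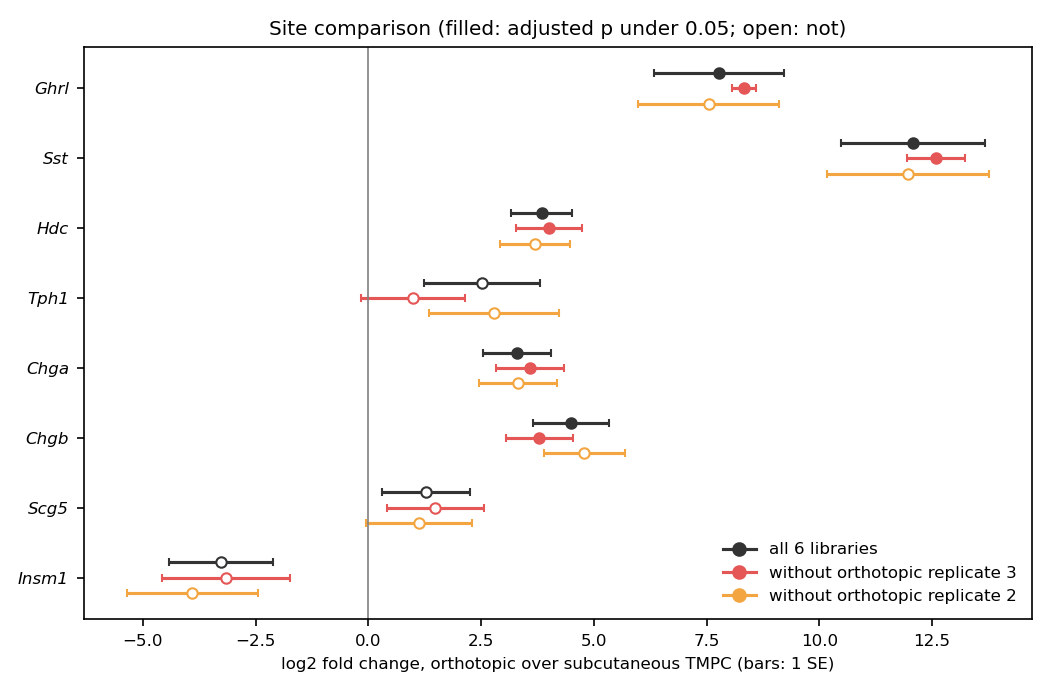
Log2 fold change of the 8 tested genes, orthotopic over subcutaneous TMPC, with bars of 1 standard error; black is the fit of all 6 libraries, red the fit without orthotopic replicate 3 and orange the fit without orthotopic replicate 2, and open points did not pass the threshold of 0.05. The value for Sst, at 0 in the subcutaneous group, depends on the prior count of the fit. The 5 called genes had log2 fold changes of 3.30 or more in each of the 3 fits, but none passed the threshold without orthotopic replicate 2. In that fit 1.87% of all genes were called higher and 0.643% lower.

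These calls rested on a small number of libraries, as did those over all genes. Over all genes 14% rose and 13.8% fell with all 6 libraries, and 1.87% and 0.643% without orthotopic replicate 2. They were 4.3% and 3.67% without orthotopic replicate 1, and 16.5% and 14% without orthotopic replicate 3. Without subcutaneous TMPC replicate 1, 2 or 3 the shares were 10.6% and 11.6%, 4.3% and 6.16%, and 6.63% and 6.72%. Without orthotopic replicate 2 none of the 10 genes was called, although the log2 fold changes stayed at 3.32 for Chga, 4.79 for Chgb, 7.54 for Ghrl, 11.96 for Sst, a fitted value that the group at 0 leaves unbounded, and 3.70 for Hdc, with edgeR adjusted p-values of 0.0697, 0.0514, 0.0541, 0.0549 and 0.0546. Without subcutaneous TMPC replicate 3, Chga, Chgb and Ghrl missed the threshold (edgeR adjusted p = 0.0822, 0.0509 and 0.0566), without subcutaneous TMPC replicate 2 Ghrl did (0.0593), and without orthotopic replicate 1 Chga did (0.0756). Without orthotopic replicate 3, the library with liver and pancreas genes, all 5 remained called, with log2 fold changes of 3.58 for Chga, 3.79 for Chgb, 8.33 for Ghrl, 12.59 for Sst and 4.00 for Hdc.

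Within the orthotopic group, replicate 3 was the lowest library for Ghrl, Sst, Chga and Hdc, and also for Scg5 and Neurod1, and the highest for Gast, Tph1 and Chgb; Insm1 was between the other 2 there. The step was sharp for Ghrl, Sst and Gast, whereas Chga and Tph1 were graded over the 3 libraries. Atp4b, a subunit of the acid pump of parietal cells, showed 50.6, 50.4 and 2.44 CPM in replicates 1, 2 and 3. Pga5, a pepsinogen of chief cells, showed 23.8, 9.23 and 0.332 CPM, and Gif, the gastric intrinsic factor gene, 91.9, 168 and 10.5 CPM. Each of these corpus genes was thus lowest in replicate 3, as Ghrl, Sst, Chga and Hdc were. The size of the step differed, since Hdc was at 48.1, 52.4 and 32.6 CPM. Atp4b, Pga5 and Gif are only part of the 14 gastric gland markers. The summed level of all 14 was 7125, 7256 and 4449 CPM in replicates 1, 2 and 3. Highest in replicate 3 were also Nkx6-3, an antral transcription factor, at 1.82, 1.81 and 9.69 CPM, and Apoa1, an intestinal and liver gene, at 39.2, 37.2 and 839 CPM. Apoa1 held most of the sum of 12 intestinal markers in replicate 3, which was 111, 116 and 952 CPM in replicates 1, 2 and 3. Other markers of that list went the other way. Above the floor were 11, 9 and 8 of the 12, and Cdx1 and Sis had 0 counts in replicates 2 and 3. Pdx1, a factor of antrum, duodenum and pancreas, was even, at 2.93, 4.34 and 3.54 CPM. The islet genes Ins1 and Ins2 had 0 counts in all 12 libraries, so that the pancreatic signal of replicate 3 came with no insulin transcript. With 3 libraries of 1 group there is no test of this pattern, and its part in the spread of the endocrine genes was not tested.

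**Figure D3:**
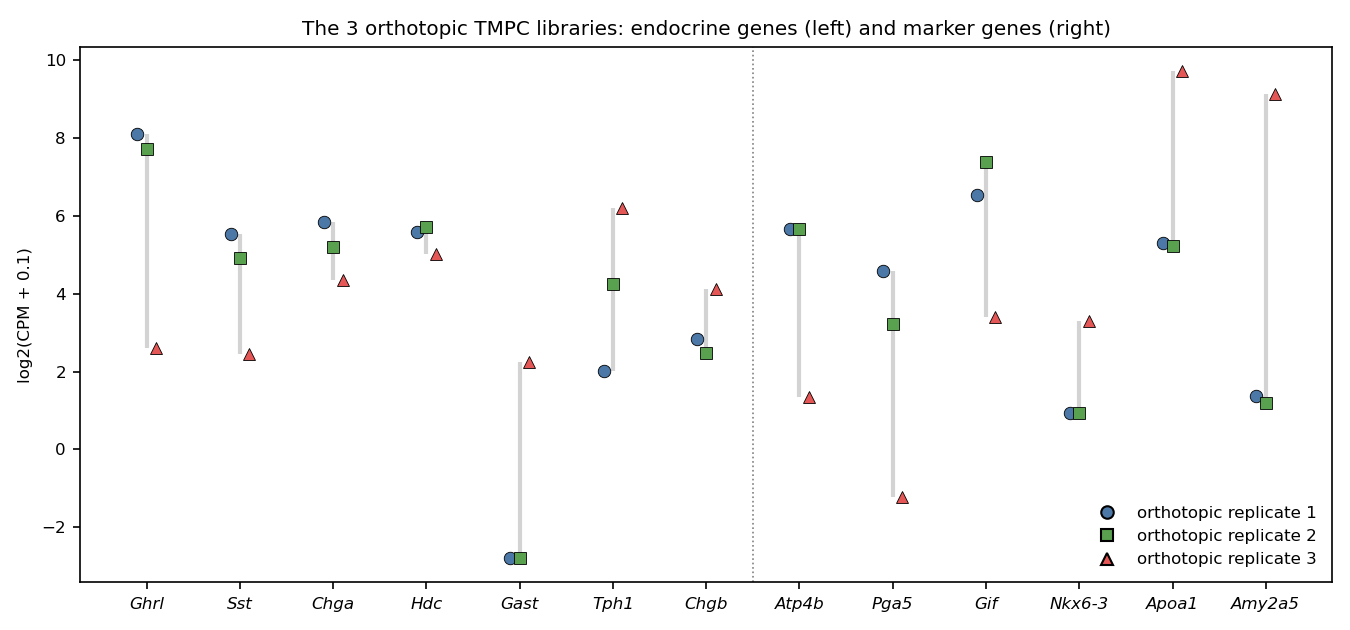
Levels in the 3 orthotopic TMPC libraries as log2(CPM + 0.1): 7 endocrine genes on the left of the dotted line and 6 marker genes of stomach, gut and pancreas on the right; the grey line spans the 3 libraries. Replicate 3 is lowest for Ghrl, Sst, Chga, Hdc, Atp4b, Pga5 and Gif and highest for Gast, Tph1, Chgb, Nkx6-3, Apoa1 and Amy2a5.

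Further genes of the endocrine program were taken from 4 lists. Of 22 endocrine transcription factors 15 were tested, 3 rose in orthotopic tumours and 0 fell, with a median log2 fold change of 0.65 against 0.05 for all genes. All 3 had no count in subcutaneous TMPC tumours, so that they were tested only because of their orthotopic levels and could not have been called lower. Of 7 factors in that position 3 rose (32.3% of all such genes), and of the other 8 factors 0 rose (11.7% of all such genes). Pdx1 and Rfx6, an activator of endocrine and islet genes, had no count in any subcutaneous library and were at least 66.4-fold and 15.0-fold higher in orthotopic than in subcutaneous TMPC tumours (edgeR adjusted p = 0.00911 and 0.0143). Nkx6-3 was at least 81.7-fold higher (edgeR adjusted p = 0.0213). Rfx6 showed 0.845, 1.04 and 0.554 CPM in the orthotopic libraries, close to the level of Neurod1.

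Of 24 granule and prohormone-processing genes 23 were tested, 6 rose in orthotopic tumours and 0 fell (median log2 fold change 0.27), where 14% of all genes rose and 13.8% fell. Of the 11 granule genes tested only because of their orthotopic levels 3 rose, or 27.3%, against 32.3% of all such genes. Of the other 12 also 3 rose, or 25%, against 11.7% of all such genes. Resp18, a granule protein, rose by 6.79 ± 0.88 (log2, SE; edgeR adjusted p = 0.00909). Ptprn2, a membrane protein of granules, and Rab3b, a GTPase of regulated secretion, each rose by 3.08 (SE 0.48 and 0.44; edgeR adjusted p = 0.0109 and 0.0103). The convertase gene Pcsk2, at 1.20, 0.633 and 1.83 CPM, was at least 22.5-fold higher (edgeR adjusted p = 0.0159). Pam, whose product amidates peptides such as gastrin, rose by 0.96 ± 0.19 (edgeR adjusted p = 0.0184). The other convertase gene, Pcsk1, was not called and its log2 fold change of -1.28 ± 1.06 changed sign without subcutaneous TMPC replicate 2 (0.08).

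Of 21 further hormone and amine-enzyme genes 3 were tested, 2 rose and 0 fell. Npy was tested only because of its orthotopic level, and of all genes in that position 32.3% rose and 0 fell. Of the other 2, Ddc and Nucb2, 1 rose, against 11.7% of all such genes. Nucb2, the nesfatin precursor, rose by 1.26 ± 0.23 and Npy, neuropeptide Y, by 3.15 ± 0.74 (log2, SE; edgeR adjusted p = 0.0146 and 0.0260). Npy also marks nerves; of 12 neuron and Schwann cell markers 8 were tested, 1 rose (S100b) and 1 fell (Uchl1), and the part of nerves in the level of Npy was not tested. Of 20 receptors for hormones, amines and gut nutrients 7 were tested and 4 rose, where 14% of all genes rose. All 4 were among the 5 that were tested only because of their orthotopic levels (32.3% of all such genes rose and 0 fell). Of the other 2 receptors 0 rose (11.7% of all such genes). Adcyap1r1, the PACAP receptor of enterochromaffin-like cells, rose by 4.33 ± 0.70, Ffar2, a short-chain fatty acid receptor, by 3.07 ± 0.51, Gpbar1, a bile acid receptor, by 3.85 ± 0.89 and Cckar, the receptor for cholecystokinin, by 4.48 ± 1.20 (log2, SE; edgeR adjusted p = 0.0115, 0.0128, 0.0252 and 0.0376). Cckar was at 38.7, 0 and 62.6 CPM in subcutaneous TM and at 18.5, 35.2 and 1.99 CPM in orthotopic replicates. Mean levels in TM and orthotopic tumours were 55.1 and 55.2 CPM for Nucb2, 253 and 159 CPM for Pam and 18.5 and 36.6 CPM for Ptprn2. High levels of these genes were thus not particular to the orthotopic site. Gpbar1 had no count in TM, and Resp18, Rab3b and Pcsk2 had means of at most 0.167 CPM there. Without orthotopic replicate 3 the counts higher of tested were 3 of 5 hormone and amine genes and 8 of 24 granule genes. They were 3 of 15 transcription factors, where 1 was lower, and 5 of 9 receptors. In that fit 16.5% of all genes rose and 14% fell. Neither the counts nor these shares were split by how genes passed the filter. Genes tested only because of their orthotopic levels can hardly be called lower, so the counts and the shares are not evenly comparable. Of the 14 called genes named in these lists, 14 stayed past the threshold without orthotopic replicate 3, 5 without orthotopic replicate 1, 9 without subcutaneous TMPC replicate 2 or replicate 3, and 2 without orthotopic replicate 2, where the highest edgeR adjusted p was 0.101. The share of all genes that rose was 16.5%, 4.3% and 1.87% without orthotopic replicate 3, 1 and 2. It was 4.3% and 6.63% without subcutaneous TMPC replicate 2 and 3. Of 14 gastric gland markers 12 were tested and 11 rose, where 14% of all genes rose and 13.8% fell. Their median log2 fold change was 12.15, or 11.10 with genes at 0 placed at their bound. Of the 12, 4 had no count in subcutaneous TMPC tumours and could not have been called lower. Only 3, 2 and 3 of the 14 were above the floor of 3 counts in subcutaneous TMPC replicates 1, 2 and 3. Most of the 12 were thus tested only because of their orthotopic levels, and their count higher is not evenly comparable with the 14%. Among all genes tested only because of their orthotopic levels 32.3% rose and 0 fell. The part of host gastric glands in the endocrine levels was not tested.

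The next comparisons set tumours of different labels against each other at the same subcutaneous site. Between TMP and TM tumours 6 endocrine genes were tested and 1, Hdc, fell, where 13.4% of the 15277 genes tested fell and 14.3% rose, 27.7% in all. The median log2 fold change was 0.41 over the 6 genes and -0.07 over all genes. Hdc was at 8.67, 185 and 17.4 CPM in TM and at 2.02, 3.15 and 4.89 CPM in TMP, a log2 fold change of -4.49 ± 1.29 (SE; edgeR adjusted p = 0.0354). The groups did not overlap, which 23.2% of genes showed in this direction, but TM replicate 2 held most of the level. Without that library the log2 fold change of Hdc was -1.95 ± 0.73 (edgeR adjusted p = 0.0733), and without TMP replicate 1, 2 or 3 or TMPC replicate 2 the edgeR adjusted p was 0.123, 0.108, 0.0900 and 0.0505.

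The same library was rich in many of the listed genes of mast cells and neutrophils, though not in all. TM replicates 1, 2 and 3 held 0.372, 28.9 and 1.28 CPM of Cpa3, 0.532, 36.3 and 1.92 CPM of Cma1, also a mast cell protease, and 18.0, 1161 and 41.6 CPM of the neutrophil gene S100a8. The summed level of the 15 mast cell and basophil markers was 68.7, 313 and 92.0 CPM, or 43.6, 224 and 55.9 CPM without Kit. Mcpt1 and Mcpt2, of the same list, had 0 counts in replicate 2. The summed neutrophil level was 2854, 4504 and 5072 CPM in TM replicates 1, 2 and 3, so it peaked in replicate 3. Ltf was lowest in replicate 2, at 2627, 374 and 4773 CPM, and without Ltf the sums were 227, 4130 and 299 CPM. Hdc, Cpa3 and Cma1 all peaked in replicate 2 there, and the part of mast cells and neutrophils in the level of Hdc was not tested. Of 10 mast cell markers tested 1, Hpgds, fell in TMP, and of 9 neutrophil markers 4 fell.

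Insm1, which was not called, was at 0.319, 2.80 and 0.595 CPM in TM and at 7.02, 19.0 and 9.50 CPM in TMP, so that every TMP library was above every TM library, as in 27.5% of genes. Its log2 fold change of 3.18 ± 1.22 (SE) missed the threshold (edgeR adjusted p = 0.0834). It passed without TM replicate 2 (4.67 ± 1.32, edgeR adjusted p = 0.0309) and without TMPC replicate 2 (3.26 ± 0.95, edgeR adjusted p = 0.0479), and by DESeq2 (3.15 ± 1.08, adjusted p = 0.0137). The other 4 tested genes overlapped between TM and TMP: the log2 fold change was 0.78 ± 1.24 for Chga, -0.58 ± 0.44 for Ghrl, 0.29 ± 0.85 for Tph1 and 0.53 ± 1.11 for Scg5, with edgeR adjusted p-values of 0.660, 0.350, 0.815 and 0.744. Chgb, Sst, Gast and Neurod1 did not pass the filter in the subcutaneous libraries. Chgb held 1 to 17 counts per subcutaneous library.

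Other genes of endocrine and neural cells passed the test between TM and TMP. Ddc, the decarboxylase that completes serotonin and dopamine synthesis, was at 1.65, 0.267 and 2.11 CPM in TM and 45.1, 16.1 and 61.4 CPM in TMP and rose by 4.88 ± 1.49 (log2, SE; edgeR adjusted p = 0.0430). The exocytosis genes Syt7 and Snap25 rose by 3.48 ± 0.76 and 4.02 ± 0.99 (edgeR adjusted p = 0.0153 and 0.0220). Elsewhere in the lists Slc18a1, a vesicular monoamine transporter, fell by 2.98 on the log2 scale (SE 0.73), Pam fell by 1.18 (SE 0.23) and Nucb2 fell by 0.93 (SE 0.21), with edgeR adjusted p-values of 0.0216, 0.0105 and 0.0179.

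Over the whole lists, 0 of 12 transcription factors tested rose and 1, Hhex, fell in TMP against TM. Of 19 granule genes tested 3 rose and 2 fell, of 5 hormone and amine genes 1 rose and 1 fell, and of 8 receptors 0 rose and 1, Adcyap1r1, fell. Of 10 neuron and Schwann cell markers 1 rose, Uchl1, which is also made by neuroendocrine cells, and the summed level of that list was 44.3 to 84.5 CPM in TMP and 14.4 to 31.2 CPM in TM. Without Uchl1, singled out after its values were seen, the sums were 19.8, 36.6 and 23.2 CPM in TMP and 13.3, 30.8 and 22.2 CPM in TM, which overlap. The part of nerves in the level of Insm1 was not tested. Without TM replicate 2 the counts higher and lower were 1 and 2 of 7 hormone and amine genes, 2 and 3 of 19 granule genes, 1 and 1 of 13 transcription factors and 0 and 2 of 9 receptors, where 16% of all genes rose and 15.1% fell. Adcyap1r1, at 47.5 CPM in TM replicate 2 against 3.72 and 5.40 CPM in the other TM libraries, had a log2 fold change of -3.58 with that library and -1.42 without it (edgeR adjusted p = 0.0328 and 0.0470). Of the 8 called genes named from these lists 1, 2 and 2 stayed past the threshold without TMP replicates 1, 2 and 3, and 7 without TM replicate 2. Without TMP replicates 1, 2 and 3, 6.75%, 8.7% and 7.99% of all genes rose and 3.06%, 4.83% and 3.88% fell.

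Subcutaneous TMPC tumours compared with TM are set out next; this comparison shares its TM libraries with the last one. Of 6 tested genes 1, Hdc, fell (log2 fold change -4.58 ± 1.30 (SE), edgeR adjusted p = 0.0269), where 17.8% of all genes fell and 18% rose, 35.8% in all. Hdc was also the single member whose groups did not overlap, lower in TMPC, as in 21.6% of genes, and 0 members were higher without overlap, as against 26.1%. Without TM replicate 2 it was -2.03 ± 0.73 (edgeR adjusted p = 0.0559), and without TMPC replicates 2 and 3 the edgeR adjusted p of Hdc was 0.0926 and 0.0860. Insm1 differed by 2.96 ± 1.21 (edgeR adjusted p = 0.0875), with 1.35, 25.0 and 4.39 CPM in TMPC, where replicate 1 overlapped TM. It passed without TM replicate 2 (4.47 ± 1.31, edgeR adjusted p = 0.0277) and without TMPC replicate 1 (3.58 ± 1.08, edgeR adjusted p = 0.0445), and was 1.22 ± 0.97 without TMPC replicate 2 (edgeR adjusted p = 0.380). By DESeq2 Insm1 passed (2.95 ± 1.08, adjusted p = 0.0188). The log2 fold change was 1.35 ± 1.25 for Chga, -0.50 ± 0.44 for Ghrl, -0.25 ± 0.85 for Tph1 and 0.85 ± 1.11 for Scg5, with edgeR adjusted p-values of 0.420, 0.404, 0.835 and 0.570.

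The TMPC libraries differed among themselves in the same genes. Replicates 1, 2 and 3 held 1.46, 87.1 and 7.12 CPM of Ddc and 6.78, 64.2 and 40.0 CPM of Syt7. Replicate 1 was lowest and replicate 2 highest for both of these and for Insm1 and Chga. Epcam was at 117, 621 and 672 CPM, so that the library lowest in these genes was also lowest in epithelial RNA, and the part of the epithelial share was not tested. Of 12 transcription factors 2 rose in TMPC against TM, Isl1 and Rfx3, and 1, Hhex, fell. Isl1 was at 6.26, 1.55 and 0.0516 CPM in TMPC replicates 1, 2 and 3 and at 0.0532, 0 and 0 CPM in TM. Its groups thus overlapped, and unlike Insm1 it was highest in TMPC replicate 1. Of 19 granule genes 5 rose and 2 fell. Pcsk1, the convertase of many hormone precursors, rose by 4.75 ± 1.20 and Cpe, the carboxypeptidase that trims cut peptides, by 1.25 ± 0.29 (log2, SE; edgeR adjusted p = 0.0180 and 0.0137). Of 5 hormone and amine genes Ddc rose and Nucb2 fell, and of 8 receptors Adcyap1r1 and Ffar2 fell. Leaving out TM replicate 2 gave 0 higher and 3 lower of 7 hormone and amine genes, 4 and 3 of 19 granule genes, 2 and 1 of 13 transcription factors and 0 and 2 of 9 receptors, where 20.7% of all genes rose and 20.1% fell. Ddc, Isl1 and Ffar2 lost their calls in that fit (edgeR adjusted p = 0.0750, 0.0525 and 0.302). The log2 fold change of Ffar2 went from -6.00 to -1.55, as TM replicate 2 held 47.2 CPM and the other TM libraries 1.22 and 0.412 CPM. That of Adcyap1r1 went from -5.54 to -3.37 and kept its call (edgeR adjusted p = 0.00186). Of the 11 called list genes named for this comparison 5 stayed past the threshold without TMPC replicate 2, 7 without TMPC replicate 3 or TM replicate 3 and 8 without TM replicate 2. Over all genes 13.3% rose and 8.31% fell without TMPC replicate 2, and 14.2% and 9.77% without TMPC replicate 3. Without TM replicate 3 these shares were 14.4% and 16.5%.

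**Figure D4:**
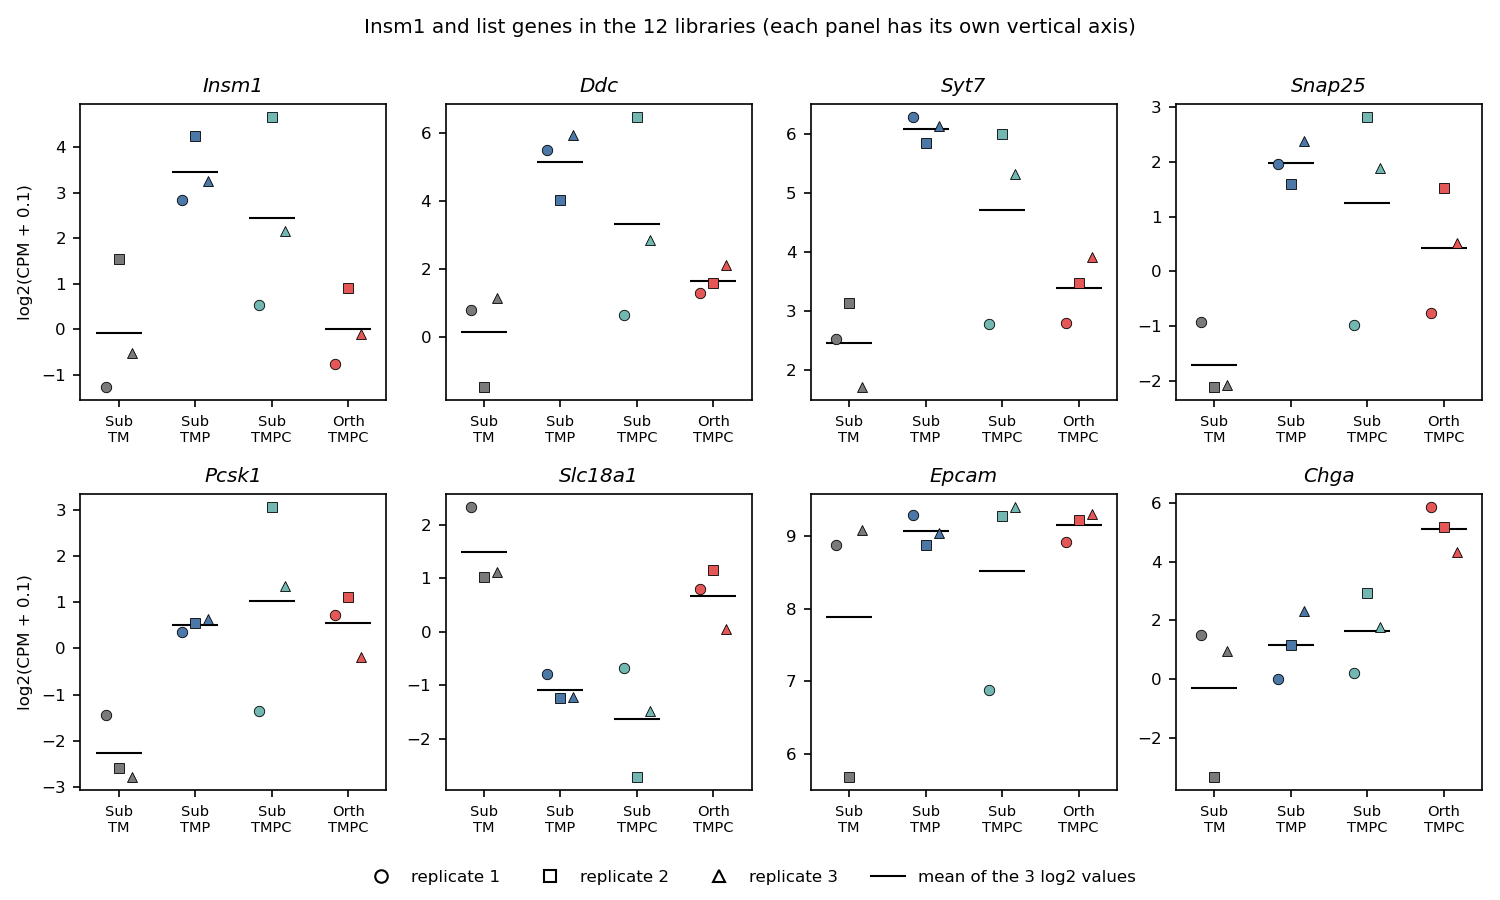
Insm1, 5 list genes of endocrine and neural cells, the epithelial gene Epcam and Chga in the 12 libraries as log2(CPM + 0.1), each panel with its own vertical axis; shapes are replicates and the line is the mean of the 3 log2 values. Insm1, Ddc, Syt7 and Snap25 are high in all 3 TMP libraries and in TMPC replicates 2 and 3, where TMPC replicate 1 is low, Slc18a1 is higher in every TM library than in any TMP or subcutaneous TMPC library, and Chga is highest in the orthotopic libraries.

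No endocrine gene passed the test between TMPC and TMP tumours at the subcutaneous site. Of 6 tested genes 0 were called by edgeR, where 0% of the 15277 genes tested were called; at an unadjusted p under 0.05 there were 465 genes and 0 of the 6, and DESeq2 called 16 genes and 0 endocrine ones. For 0 of the 10 genes the groups stood clear of each other, where 7.14% of all genes did so higher and 5.67% lower. The log2 fold change was 0.57 ± 1.23 for Chga, 0.08 ± 0.45 for Ghrl, -0.09 ± 1.15 for Hdc, -0.55 ± 0.85 for Tph1, -0.22 ± 1.10 for Insm1 and 0.32 ± 1.08 for Scg5 (SE). These errors leave room for differences of several fold for all of these genes but Ghrl.

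Likeness of course over the 12 libraries was measured by Pearson's correlation of log2 CPM with each of 14913 other genes, and is given as a description, since libraries of a group share their tumour type and site. The genes closest to Ghrl were Pga5 (r = 0.993), Atp4b (0.982) and Cyp2c44 (0.977), the first 2 being genes of chief and parietal cells. Sst was closest to 9130204L05Rik (r = 0.993), Cyp2c44 (0.990) and Gsdma2 (0.989). For both hormones the likeness rests on the gap between 3 orthotopic and 9 subcutaneous libraries, because the genes named are near 0 in the latter. Chgb was closest to Apoa4 (r = 0.956) and Apoa1 (0.955), which are lipid-carrier genes of intestine and liver that peak in orthotopic replicate 3. Insm1 was closest to Elavl3 (r = 0.969), an RNA-binding protein of neurons, Tmem163 (0.957), a zinc transporter of vesicles, and Dpysl5 (0.940), a protein of growing axons. Elavl3 was low in level throughout, at 2.02 to 4.78 CPM in TMP and at most 0.267 CPM in TM. Hdc was closest to Cdc42ep2 (r = 0.983), Chga to Anks1b (0.949), Scg5 to Fam222a (0.909) and Tph1 to Plaur (0.875). No gene among the 3 closest was shared between members other than Cyp2c44.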

How the data were processed

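Bulk poly(A) RNA-seq of 12 libraries (paired reads of 150 bases) was used; 2 single-cell samples of the series were not analysed here. The authors deposited raw counts per gene in 2 tables, beside counts divided by size factors (signal, DESeq2 normalized per the file headers), which served only to check rows. The submitters' processing notes name STAR 2.6.0, DESeq2 and mm10; which counter and annotation, and whether strand was used, is not given in the sources used here. From entry 12291 of the subcutaneous table on, symbols no longer sat beside their own counts, so they were read by position from the site table: the shared libraries had equal counts in all 24421 entries, and 24419 of 24419 normalized values then matched (14200 before; tolerance 0.01). Dates stood in place of 27 symbols, and 26 could be put back.

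The test was edgeR's (version 4.0.16, R 4.3.3; quasi-likelihood test, TMM, filterByExpr, Benjamini-Hochberg over all genes tested, threshold 0.05), with the subcutaneous comparisons in 1 fit of 9 libraries and the site comparison in a fit of 6. Fits were tested on simulated data. SE is the log2 fold change over the root of the F statistic. A fold against a group at 0 is a lower bound against 3 counts over the group. Exact permutation of 3 against 3 cannot go below p = 0.1. Alternatives were DESeq2 1.42.0, RLE factors, no filter, other library sets, a replicate block and leaving out each library. Floors and bounds cover counting error only. Named genes were all 10 members and, of each further list, at most 4 called genes per comparison. Likeness was measured for members with at least 100 counts over the 12 libraries, which left out Gast (86 counts) and Neurod1 (33 counts). The genes most like a member were ranked among those with a mean CPM of at least 1. The members, the 10 lists (163 genes, 162 in the table) and the rules were chosen with earlier results of these data known; an item withheld from 1 list is not reported here.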

Additional observations from a re-analysis of the deposited data

How the results depend on the processing

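Direction and side of the threshold were kept in most alternatives, and the exceptions follow; for each the cause was not tested. Endocrine genes called, 1 for TMP against TM and 1 for TMPC against TM, were 2 and 2 by DESeq2, 0 and 0 with only the groups compared in the fit, and 0 to 1 and 0 to 2 when 1 library was left out. For orthotopic against subcutaneous TMPC the 5 called were 7 by DESeq2, 3 with a replicate block, 4 with all 12 libraries in the fit and 0 to 7 when 1 library was left out. Over all genes, the 4239 called for TMP against TM were 1550 to 4885 when 1 library was left out. The 5469 for TMPC against TM were 3536 with only the groups compared and 3414 to 6390 when 1 library was left out. The 4204 of the site comparison were 6344 by DESeq2, 1777 with a replicate block and 387 to 4789 when 1 library was left out. For TMPC against TMP, DESeq2 called 16 genes and edgeR 0.

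Leaving out 1 library turned the sign of uncalled log2 fold changes: for TMP against TM, Chga ranged from -0.013 to 1.47 and Tph1 from -0.031 to 0.70, and for TMPC against TM, Tph1 ranged from -1.61 to 0.34. For TMPC against TMP the ranges were -0.27 to 1.38 for Chga, -0.00083 to 0.27 for Ghrl, -1.19 to 0.29 for Hdc, -2.04 to 0.31 for Insm1 and -0.29 to 0.89 for Scg5. Pcsk1 ranged from -1.84 to 0.085 in the site comparison.

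Libraries with the same replicate number did not deviate together (correlations of -0.25 to 0.29), so the numbers were not taken to pair them. With the replicate block, Scg5 was -0.13 for TMPC against TMP, Hdc lost its calls (edgeR adjusted p = 0.120 in both comparisons with TM) and Insm1 gained them (0.0152 and 0.0202 for TMP and TMPC). With only the groups compared in the fit, Hdc had an edgeR adjusted p of 0.0614 for TMP and 0.0682 for TMPC against TM. Depth limits Gast and Neurod1, with at most 84 and 15 counts in a library.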
